A study of Caenorhabditis elegans with 4 samples.

Results

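Broad NURF-1 domains are the peaks of at least 1500 bp in the combined NURF-1 peak list of Caenorhabditis elegans L3 larvae. They were chosen by width alone, as the last base minus the first base plus 1, on the 6 nuclear chromosomes. The rule found 425 domains among 10482 nuclear peaks, which is 4.05% of the list. The data are ChIP-seq (sequencing of DNA recovered by chromatin immunoprecipitation) on whole wild-type N2 worms, a mixed population of males and hermaphrodites raised at 20 °C, with a rabbit polyclonal antibody against NURF-1. The labels describe 2 ChIP replicates and 2 input DNA libraries, and no other genotype, stage or treatment. The authors deposited 1 peak list for each ChIP replicate and 1 for the series, here called the combined list. The labels do not say whether the replicates came from separate cultures, so differences between them may be technical. Because whole larvae were used, each peak is a sum over all tissues.

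NURF-1 is the worm counterpart of mammalian BPTF and the largest subunit of NURF, a complex that slides nucleosomes with the ISWI-type ATPase ISW-1. Longer forms of the protein carry a bromodomain and PHD fingers, modules that bind modified histone tails, and the complex is known for acting at promoters of transcribed genes. In worms nurf-1 is known for roles in vulval development and in the switch from sperm to oocyte production. A ChIP-seq peak is a stretch where immunoprecipitated DNA exceeds the local background, so its width depends on the extent of binding, on fragment length and on how the caller joins neighbouring stretches. The genes and DNA sequence under the domains were not analysed here. Positions are on the WormBase WS220 build.

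The domains ranged from 1503 to 10000 bp, with a median of 1836 bp. Of the 425 domains, 262 were under 2000 bp, 120 were between 2000 and 2999 bp, and 43 were 3000 bp or more. Together they covered 904 kb, which is 15.3% of all bases in combined peaks and 0.901% of the nuclear genome. The limit does not fall in a gap of the width distribution. The 3 domains just inside it were 1503 and 1506 bp on III and 1507 bp on IV, with combined scores of 136.01, 141.72 and 128.54. The 3 peaks just outside were 1499 bp on III, 1499 bp on IV and 1498 bp on II, with scores of 161.58, 140.12 and 13.5.

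Score rose with width only up to about 1000 bp, well below the limit. The score is the authors' own value for each peak, of a scale that the sources used here do not give, so it serves only to rank peaks within a list. It and the width come from the same list, so the following values are a description. Below 1500 bp, score rose with width, with a Spearman rho of 0.79 over 10057 peaks. The median score was 4.92 for peaks under 200 bp, 31.0 for those of 500 to 749 bp and 94.3 for those of 750 to 999 bp. From about 1000 bp on, wider peaks no longer ranked higher. Median scores were 110.5 at 1000 to 1199 bp, 119.8 at 1200 to 1499 bp, 116 at 1500 to 1999 bp, 123 at 2000 to 2999 bp and 76.1 at 3000 bp or more. Within the domains rho was 0.05 (n = 425), and on single chromosomes it ran from -0.05 on II to 0.21 on V.

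**Figure D1:**
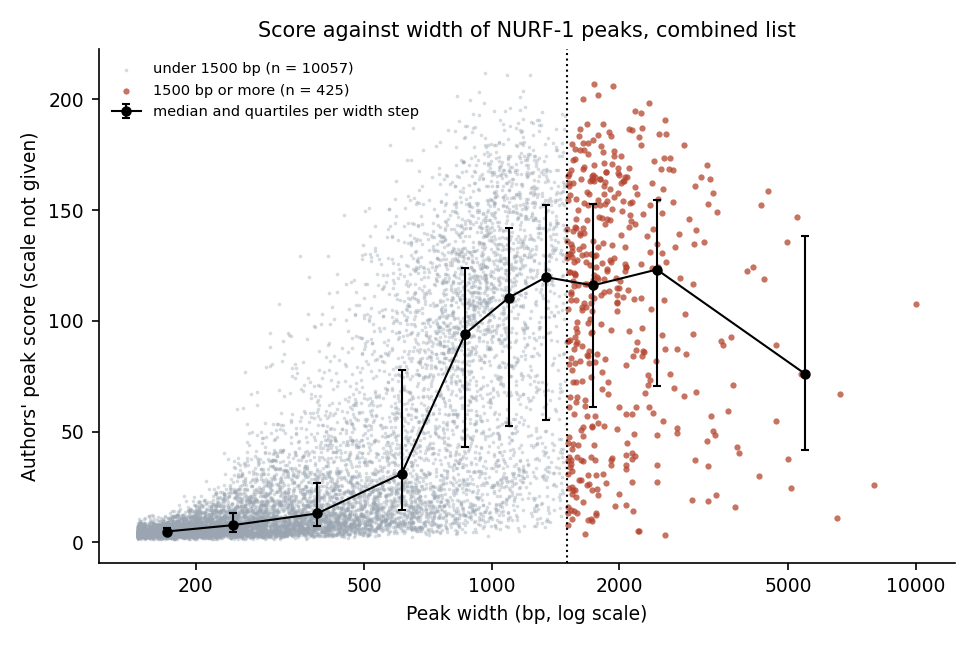
Score (authors' units) against width (bp, log scale) of the 10482 nuclear peaks in the combined list, with domains in red and black points for the median and quartiles of each width step. The median climbs to 94.3 at 750 to 999 bp, then stays between 110.5 and 123 up to 2999 bp and is 76.1 for the widest step.

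The domains therefore span nearly the whole range of scores. Their scores ran from 3.54 to 207.17 with a median of 115. Of the domains, 181 (42.6%, 95% Wilson interval 38.0 to 47.3) were among the highest-scoring 10% of the list, where the background is 10%. That share was 41.5% (38.7 to 44.4) among the 1132 peaks of 1000 to 1499 bp, so domains and the next narrower peaks could not be told apart by this count. Scores above the median of all peaks were found for 411 domains (96.7%, background 50%). The 5 highest-scoring domains lay at I 3546546 to 3548285 (combined score 207.17), III 3915377 to 3917307 (205.99), V 1150361 to 1152143 (201.94), II 7122317 to 7123954 (200.33) and I 7019837 to 7022178 (198.54). All 5 were between 1638 and 2342 bp wide, while the widest 10% of domains began at 3008 bp.

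The replicate lists were then read at each domain, with an overlap of at least 1 bp counted as found. How the combined list was made is not known, and it may rest on the same reads, so the replicate lists cannot be taken as independent of the choice of domains and no test was made. Of the 425 domains, 420 (98.8%, 97.3 to 99.5) held a peak in both replicates, against 52.9% of all nuclear peaks. The share was 98.9% (98.2 to 99.4) for peaks of 1000 to 1499 bp and 50.9% for all peaks under 1500 bp. Presence in both replicates was thus shared with the next narrower peaks. All 425 held a replicate 2 peak (background 59.4%), and 420 held a replicate 1 peak (background 80.6%).

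Few domains overlapped a peak of 1500 bp or more in both replicates. A replicate 1 peak that itself reached 1500 bp overlapped 292 domains (68.7%, background 2.99%), and such a replicate 2 peak overlapped 94 (22.1%, background 1.1%). These backgrounds are made up mostly of the domains themselves. Of the 10057 peaks under 1500 bp, 21 overlapped such a peak in replicate 1 and 21 in replicate 2. This contrast follows in large part from the width rule. Peaks of that width lay in both replicates at 68 domains (16%, 12.8 to 19.8), in replicate 1 alone at 224 (52.7%) and in replicate 2 alone at 26 (6.12%). At the other 107 domains (25.2%, 21.3 to 29.5) neither replicate had a peak of that width, so the broad call was made in the combined list alone. These 4 groups were counted for domains only, so their shares have no background. The 4 groups differed in score. Median combined scores were 137 for domains broad in both replicates, 122 for replicate 1 alone, 81.1 for neither and 27.1 for replicate 2 alone. Median widths were 2333, 1846.5, 1688 and 1725.5 bp in the same order. Applied to the replicates themselves, the limit gave 303 broad peaks in replicate 1 (3.34% of 9065) and 103 in replicate 2 (1.37% of 7518). Of these, 294 (97.0%) and 93 (90.3%) overlapped a domain. Among replicate peaks of any width, 602 of 9065 and 820 of 7518 did so. That contrast too follows in large part from the width rule. Set against each other directly, 70 of the 303 broad replicate 1 peaks (23.1%) and 70 of the 103 broad replicate 2 peaks (68.0%) overlapped a broad peak of the other replicate. Most peaks that reached 1500 bp in replicate 1 thus had no counterpart of that width in replicate 2.

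Domains were split more often in replicate 2 than in replicate 1. In replicate 1, 292 domains (68.7%) were 1 peak, 96 (22.6%) were 2 peaks and 32 (7.53%) were 3 or more. In replicate 2, 173 (40.7%) were 1 peak, 156 (36.7%) were 2 and 96 (22.6%) were 3 or more. The mean number was 1.42 in replicate 1 and 1.94 in replicate 2. Thus 128 domains (30.1%, 26.0 to 34.6) were split in replicate 1, against 4.13% of all nuclear peaks, and 252 (59.3%, 54.6 to 63.9) were split in replicate 2, against 6.2%. A wider peak has more room for several replicate peaks, so these shares follow in part from the width rule. Replicate 2 had more peaks than replicate 1 in 195 domains (45.9%, background 11.4%), the same number in 187 (44%, background 59%) and fewer in 43 (10.1%, background 29.7%). For 138 domains (32.5%, background 45%) there was exactly 1 peak in each replicate. These backgrounds also count peaks absent from a replicate list. At 1000 to 1499 bp, replicate 2 had more peaks in 15.9%, the same number in 76.2% and fewer in 7.86%. Exactly 1 peak in each replicate was found for 71.6% of that class.

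**Figure D2:**
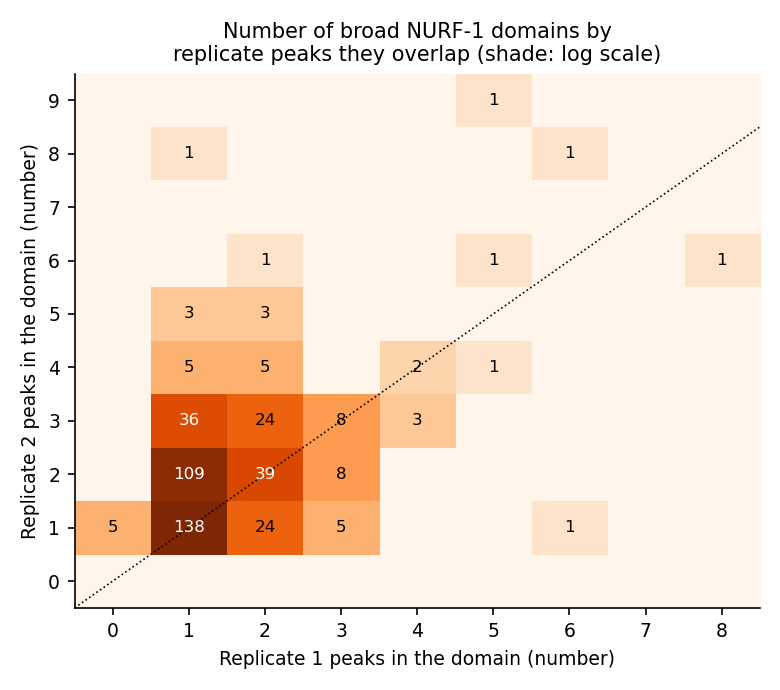
Number of domains (printed in each cell, shade on a log scale) by how many replicate 1 peaks (horizontal axis) and replicate 2 peaks (vertical axis) they overlap, with a dotted line where the numbers are equal. The fullest cells are 138 domains with 1 peak in each replicate and 109 with 1 in replicate 1 and 2 in replicate 2, and 195 domains lie above the line against 43 below it.

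Splitting grew with width. In replicate 1 the share of split peaks was 12.6% (10.8 to 14.7) at 1000 to 1499 bp, 22.9% (18.2 to 28.4) at 1500 to 1999 bp, 33.3% (25.5 to 42.2) at 2000 to 2999 bp and 65.1% (50.2 to 77.6) at 3000 bp or more. The corresponding shares in replicate 2 were 20.6% (18.3 to 23.0), 50% (44.0 to 56.0), 70% (61.3 to 77.5) and 86.0% (72.7 to 93.4). Replicate 2 was higher in each width step. Domains split in both replicates numbered 98 (23.1%, background 1.68%), and 27 of the 43 domains of 3000 bp or more were among them.

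In each replicate, domains in the lower 2 of 4 score groups were split more often than those in the upper 2. The domains were taken in 4 groups of rising combined score, with 107 domains up to 59.17 and 106 in each of the others, which reached 115.06, 152.73 and 207.17. In replicate 1 the share of split domains was 51.4% (42.0 to 60.7), 34.9% (26.5 to 44.4), 14.2% (8.77 to 22.0) and 19.8% (13.3 to 28.4) in that order. Only 102 of the 107 domains in the lowest group held a replicate 1 peak, and the other 5 count as not split there. In replicate 2 the share of split domains was 65.4% (56.0 to 73.8), 76.4% (67.5 to 83.5), 45.3% (36.1 to 54.8) and 50% (40.6 to 59.4). The fall was not steady. The lowest group was the most split in replicate 1 and the next group in replicate 2, and in each replicate the highest group had a slightly larger share than the group below it, within overlapping intervals. Counted over both replicates, the 138 domains with a total of 2 replicate peaks had a median width of 1720 bp and scored 139 at the median (the 5 domains without a replicate 1 peak are not among these counts). Medians were 112 for 133 domains with 3 replicate peaks, 103 for 80 with 4, 67.7 for 37 with 5 and 66.1 for 32 with 6 or more, whose median width was 3063 bp. Width rises and score falls along this series.

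The breaks inside domains were short. Replicate 1 peaks within a domain were separated by 182 gaps with a median of 126 bp, of which 136 (74.7%) were under 200 bp. Replicate 2 peaks were separated by 398 gaps with a median of 169.5 bp, of which 224 (56.3%) were under 200 bp. No gap in either list was shorter than 51 bp. When replicate peaks under 200 bp apart were joined, the share of split domains fell to 9.41% in replicate 1 and 36% in replicate 2.

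Replicate 1 covered the domains nearly from end to end and replicate 2 did not. The median domain was covered to 94.8% by replicate 1 peaks and to 71.0% by replicate 2 peaks. At least 90% of the bases were covered in 291 domains (68.5%, background 49.3%) by replicate 1 and in 47 (11.1%, background 8.64%) by replicate 2. Over all domain bases, 5.17% lay at the edges beyond the outermost replicate 1 peak and 3.73% in inner gaps. In replicate 2, 18.6% lay at the edges and 10.3% in inner gaps. Most of the uncovered length in replicate 2 was therefore at the margins of domains. The 1132 peaks of 1000 to 1499 bp had similar median cover, 94.4% in replicate 1 and 67.7% in replicate 2.

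**Figure D3:**
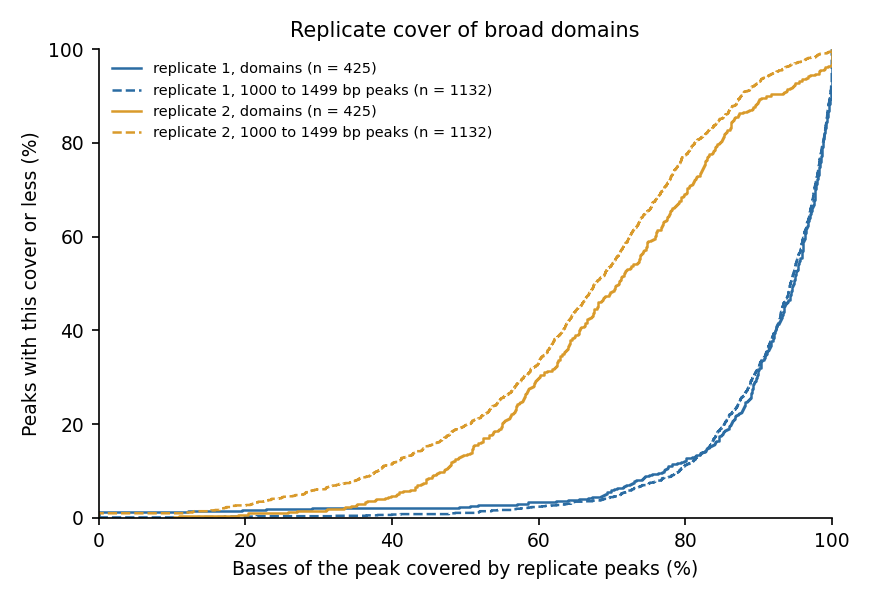
Share of peaks (%) with a given cover or less against the bases covered by replicate peaks (%), for the 425 domains (solid) and the 1132 peaks of 1000 to 1499 bp (dashed) in replicate 1 (blue) and replicate 2 (orange). The replicate 1 curves lie together near full cover, with medians of 94.8% and 94.4%, while the replicate 2 curves have medians of 71.0% and 67.7%.

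The widest domains illustrate both kinds of structure. The widest, II 10541661 to 10551660 (10000 bp, combined score 107.6), was covered to 91.7% by 5 replicate 1 peaks, the longest of which took up 62.9% of the domain. Its 9 replicate 2 peaks covered 76.9%, and the longest took up 30.6%. The next, II 14600621 to 14608599 (7979 bp, score 25.79), was 6 peaks in replicate 1 and 8 in replicate 2 that covered 92.6% and 85.3%. Some of these replicate peaks themselves reached 1500 bp, the longest being 6290 bp in replicate 1 of the first domain. Both domains were chains of peaks narrower than the domain in both replicates. So were II 1232958 to 1238306 (5349 bp, score 76.12), with 8 and 6 peaks, and V 6220998 to 6226083 (5086 bp, score 24.41), with 5 and 6. A further domain, II 11756856 to 11762109 (5254 bp, score 146.84), was 1 peak in replicate 1 with 99.9% cover but 8 peaks in replicate 2 with 70.6% cover. There the replicates differed in continuity and not in extent alone.

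A few wide domains were 1 peak in each replicate. This held for 5 of the 43 domains of 3000 bp or more (11.6%, 5.07 to 24.5), against 45% of all nuclear peaks. V 9340051 to 9345028 (4978 bp, score 135.52) was 1 peak in each replicate, with 96.7% and 98.5% cover and scores of 114.15 and 120.07. V 723942 to 728070 (4129 bp, score 124.28) and I 3389976 to 3393575 (3600 bp, score 59.17) were likewise 1 peak in each, with cover of at least 95.6% in both replicates. III 13461920 to 13465150 (3231 bp, score 152.92) and I 7656500 to 7659526 (3027 bp, score 67.98) completed the 5 widest domains of this kind. Replicate 2 covered the domain at I 7656500 to only 80.1%. On X, the domain at 16929364 to 16936001 (6638 bp, score 66.83) was unbroken in replicate 1 and held 2 replicate 2 peaks. It was followed after 51 bp by another domain of 4264 bp, up to 16940316, with a score of 29.76. Also among the 10 widest were X 3111751 to 3116737 (4987 bp, score 37.71) and IV 4467670 to 4472360 (4691 bp, score 89.28), each with 2 replicate 1 and 3 replicate 2 peaks. On the other chromosomes the widest domains were I 4788242 to 4792230 (3989 bp, score 122.43) and III 9050845 to 9055233 (4389 bp, score 118.71).

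**Figure D4:**
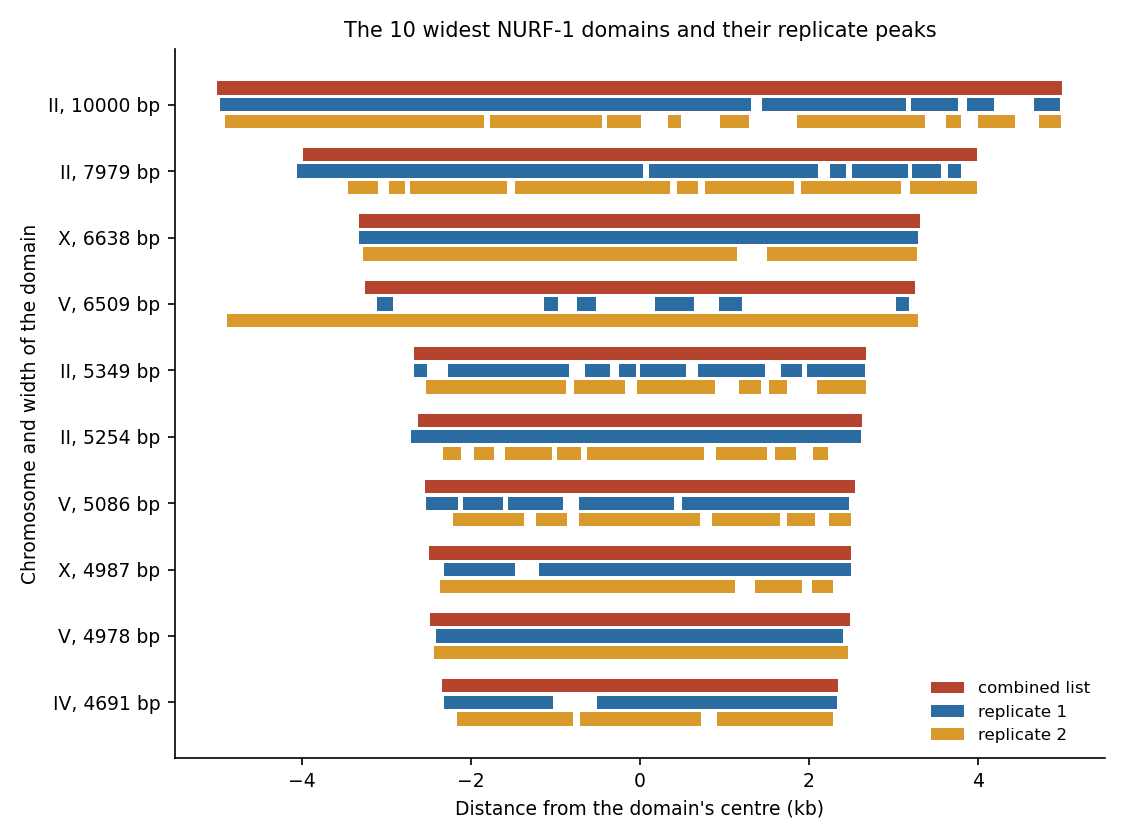
The 10 widest domains (red) with the replicate 1 peaks (blue) and replicate 2 peaks (orange) that overlap them, drawn to scale against distance from the domain's centre (kb), each labelled by chromosome and width. The 10000 bp domain holds 5 replicate 1 and 9 replicate 2 peaks, the 6509 bp domain on V holds 6 short replicate 1 peaks under 1 replicate 2 peak, and the 4978 bp domain on V is 1 peak in each.

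A small set of domains rested on replicate 2. The 5 domains without a replicate 1 peak were all covered to 100% by replicate 2, and they were also the 5 domains with the lowest combined scores. Of these, 4 stood close together at the right end of chromosome I, at 15061466 to 15063127 (score 3.91), 15063193 to 15065415 (5.2), 15065548 to 15067759 (5.11) and 15068661 to 15071226 (3.54). As background, the tandem array of ribosomal RNA genes of C. elegans lies at that end of chromosome I. A single replicate 2 peak of 7649 bp, from 15060304 to 15067952 with a score of 16.67, spanned the first 3, and another of 3298 bp with a score of 14.3 covered the last. The nearest replicate 1 peak was 6.89 kb or more away. Here replicate 2 was the continuous list and the combined list the broken one. The fifth, V 3434707 to 3436221 (score 8.08), lay under a replicate 2 peak of 1757 bp with a score of 12.22.

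Replicate 1 covered less than 50% of 5 more domains, and replicate 2 covered these to between 79.2% and 100%. The widest was V 7918495 to 7925003 (6509 bp, score 11.02). It held 6 short replicate 1 peaks that covered 22.9% and scored at most 7.71, under 1 replicate 2 peak of 8181 bp with a score of 48.07. That replicate 2 peak also covered the neighbouring domain at 7916893 to 7918432 (score 14.54), of which replicate 1 covered 29.1%. The other 3 were I 1661549 to 1663096, II 11844417 to 11846142 and V 16592471 to 16594183, with combined scores between 9.48 and 10.63. In all, 10 domains (2.35%, background 21.7%) were covered to under 50% by replicate 1 and 57 (13.4%, background 51.3%) by replicate 2.

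Conversely, a few broad replicate peaks had no domain. Of the 9 such peaks in replicate 1, the widest was V 126363 to 128499 (2137 bp, replicate 1 score 179.85), which the combined list gave as 2 peaks of at most 1148 bp. Among the 10 in replicate 2 the widest was V 17129683 to 17132112 (2430 bp, replicate 2 score 31.78), which overlapped 3 combined peaks of at most 548 bp. Only 2 of them, III 2077673 to 2079835 and IV 2828795 to 2830556, with scores of 7.89 and 7.13, overlapped no combined peak. Boundaries and breaks thus differed between the lists in both directions.

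Domains were unevenly spread over chromosomes, and X had the fewest. The combined list held 116 domains on I, 96 on III, 76 on IV, 67 on II, 55 on V and 15 on X. Per megabase that was 7.70 on I (95% exact Poisson interval 6.36 to 9.23), 6.96 on III (5.64 to 8.51), 4.385 on II (3.40 to 5.57), 4.34 on IV (3.42 to 5.44) and 2.63 on V (1.98 to 3.42). X had only 0.847 per megabase (0.474 to 1.40). Since X also has fewer peaks of any width, the share of its peaks that were broad is the fairer measure. It was 5.14% on I, 4.43% on III, 4.27% on II, 3.96% on IV, 3.43% on V and 1.55% on X (0.943 to 2.55). The autosomal mean was 4.25% ± 0.631 (SD, n = 5 autosomes), and X minus that mean was -2.69 percentage points. X was the lowest of 6 chromosomes, but an exact two-sided permutation over chromosomes cannot go below p = 0.167, which was the value found (adjusted p = 0.25 over 3 tests of position). X was also lowest in each replicate list, with 1.16% against an autosomal mean of 3.50% ± 0.601 in replicate 1 and 0.831% against 1.44% ± 0.287 in replicate 2. These X shares rest on only 9 broad peaks in replicate 1 and 6 in replicate 2. Chromosome IV was close to X in replicate 2, with 1.02% (14 broad peaks).

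The shortfall on X was seen among higher-scoring peaks. Of peaks with scores from 50 to under 100, 2 of 161 on X (1.24%, 0.341 to 4.42) and 92 of 985 on autosomes (9.34%, 7.68 to 11.3) were broad. For scores from 100 to under 150 the counts were 2 of 96 (2.08%, 0.573 to 7.28) and 128 of 1091 (11.7%, 9.96 to 13.8). At 150 or more they were 2 of 19 (10.5%, 2.94 to 31.4) and 111 of 493 (22.5%, 19.0 to 26.4), where the intervals overlap. Under 50 the shares were close, with 9 of 690 on X (1.30%, 0.688 to 2.46) and 79 of 6947 on autosomes (1.14%, 0.913 to 1.41). Whether the contrast differs between score ranges was not tested. The 15 domains of X had a median score of 43.8, against medians of 111 to 122 on the 5 autosomes, and a median width of 2060 bp against 1811 to 1877.5 bp. The highest-scoring domains of X were at 7067309 to 7068996 (180.51), 4523328 to 4526602 (164.01) and 11946701 to 11948760 (133.25).

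**Figure D5:**
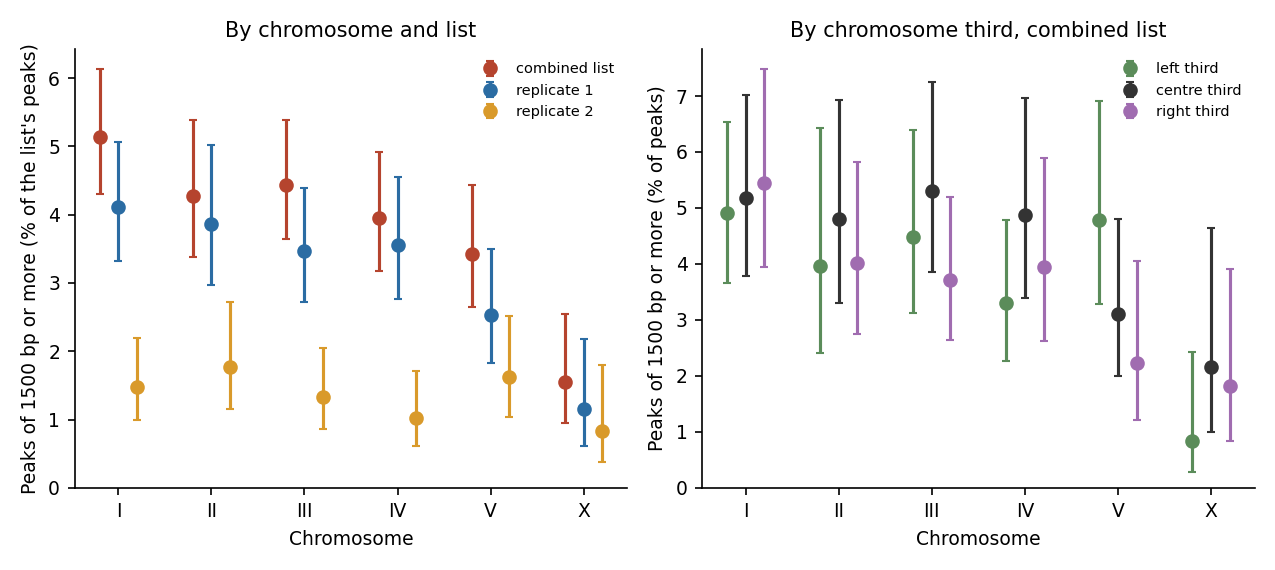
Peaks of 1500 bp or more as a percentage of all peaks, by chromosome in the combined list and both replicates (left) and by left, centre and right segment of each chromosome in the combined list (right), with points for the share and bars for the 95% Wilson interval. X is lowest in all 3 lists, at 1.55%, 1.16% and 0.831%, while segments of a chromosome have overlapping intervals.

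Each chromosome was divided into 3 segments of equal length, the middle one called the centre and the outer ones the arms. Centres held 153 domains among 3418 peaks (4.48%, 3.83 to 5.22), left arms 141 among 3573 (3.95%, 3.36 to 4.64) and right arms 131 among 3491 (3.75%, 3.17 to 4.44). The share was higher in the centre than in the arms on 5 of 6 chromosomes, by 0.629 ± 0.724 percentage points (SD, n = 6 chromosomes), which did not pass the exact two-sided sign-flip permutation test (p = 0.0938, adjusted p = 0.25). The sign of this difference depended on the measure. It was -0.489 with covered bases in place of peaks, -4.10 among the highest-scoring 10% of peaks and -0.544 in the replicate 2 list, none of which passed the test either. Chromosome V was the exception to the higher centre. Its left arm had 4.78% (3.28 to 6.91), its centre 3.11% (2.00 to 4.81) and its right arm 2.23% (1.21 to 4.05), and the 10 domains of its right arm had a median score of 156 against 105 for the 26 of the left arm. On IV the centre had 4.88% and the left and right arms 3.30% and 3.94%. On I the centre (5.17%) was barely above both arms together (5.13%), and the right arm alone had 5.44%. On X the left arm had 3 domains among 359 peaks (0.836%), against 6 of 277 in the centre and 6 of 330 in the right arm.

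Most domains had no other domain within 10 kb. The distances were not compared with those of domains placed at random, so they do not show whether domains lie apart or cluster. The median distance between consecutive domains was 112 kb over the genome, with 68.2 kb on I, 78.7 kb on III, 262 kb on V and 764 kb on X. Of 419 distances, 48 (11.5%) were under 10 kb. Joined at that distance, 335 domains stood alone, 37 stretches held 2 domains, 4 held 3 and 1 held 4. The stretch of 4 is the one at the right end of chromosome I described above. The shortest of the 4 stretches with 3 domains were I 531501 to 537543, with domains scoring 24.84 to 168.81 in 6.04 kb, and V 1150361 to 1158833, with domains scoring 32.03 to 201.94 in 8.47 kb. The other two were II 6888173 to 6898847 and I 7861093 to 7872344. Of 97 full 1-Mb bins, 9 held no domain, and 7 of those were on X. The fullest bin was 7 to 8 Mb of I with 14 domains among 147 peaks (9.52%), followed by 11 to 12 Mb of IV with 12 among 133 (9.02%). By share of peaks, 1 to 2 Mb of II (7 of 64, 10.9%) and 1 to 2 Mb of V (8 of 80, 10%) were higher. Between consecutive domains, the longest stretch without one was 3499 kb on X, from 7068997 to 10567664, followed by 2142 kb on II, from 2233480 to 4375705. Chromosome ends are not counted in this ranking, and the first domain of X began only at 3111751.

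Clustering was tested through the order of peaks along the chromosome. A peak whose left neighbour was a domain was itself a domain in 24 of 425 cases (5.65%), against 401 of 10051 (3.99%) after a narrower peak. The difference averaged 1.76 ± 3.46 percentage points over 6 chromosomes, was positive on I, V and X and negative on II, III and IV, and did not pass the exact two-sided sign-flip permutation test (p = 0.281, adjusted p = 0.281). On I, 12 of 116 domains (10.3%) were followed by another, and 10 of 112 (8.93%) without the 4 domains at its right end. With a limit of 1000 bp the difference was 1.89 points, positive on 6 of 6 chromosomes (exact permutation p = 0.0312, the smallest possible), and when combined peaks under 200 bp apart were joined it was 2.05 points with the same p. Over all settings run, the unadjusted p lay between 0.0312 and 0.781. Of the 24 adjacent pairs, 10 were separated by under 200 bp. Narrower peaks also lay close by. Another peak of any width was found within 200 bp of 124 domains (29.2%, 25.1 to 33.7, background 19.9%), and of 22 of the 43 domains of 3000 bp or more.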

How the data were processed

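Peaks were called with MACS on WormBase WS220, per the file headers, and reads were aligned with BWA to ce10, per the submitters' processing notes. Worms were crosslinked for 20 minutes with EGS and 10 more with EGS plus formaldehyde, per the labels' protocols. Versions, filters, the use of the input and the making of the combined list are not given in the sources read here. The deposited lists give the first and last base of each peak and a score of unstated scale. They hold no reads, so depth is unknown, and intervals cover counting error over peaks only.

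Of 10483 combined and 7519 replicate 2 peaks, 1 each lay on mitochondrial DNA and was left out. Chromosome length was the last peak end in any list. Shares carry 95% Wilson intervals. The 3 tests of position take chromosomes as units. These belong to 1 list, so the tests describe how alike chromosomes are, not variation between cultures. Benjamini-Hochberg adjustment was over these 3. Functions were tested on simulated data. Domains named are the 10 widest, the widest of each chromosome, the 5 highest and 5 lowest in score, the 5 most split, the 5 widest with 1 peak in each replicate, those missing from a replicate, the 3 stretches with most domains (the shorter first among ties) and the peaks at the limit. Other regions named, among them the domains under 50% cover, the broad replicate peaks outside domains, the domains of X and the bins, were chosen after their values were seen. The domains and this rule were chosen with earlier results of these data known. Scripts ran under Python 3.11.15 with scipy 1.17.1, pandas 2.3.3, matplotlib 3.10.9 and numpy 2.4.6.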

Additional observations from a re-analysis of the deposited data

How the results depend on the processing

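Of 59 alternative values over 10 results, 41 were counted as the same as the main value. For most results this meant that direction and call were kept, or that the move was less than the spread. The number of domains has no such measure, and both 303 and 595 were counted as the same as 425. That number was 1557 with a limit of 1000 bp, 163 with 2000 bp, 181 in the highest-scoring 10% and 103 to 303 in the replicate lists alone. It was 595 with combined peaks under 200 bp apart joined. The share found in both replicates was 84.2% when 50% cover was required in each. The share split was 17.4% (1000 bp) and 41.7% (2000 bp) in replicate 1, 31.1% and 74.2% in replicate 2, and 9.41% and 36% with replicate peaks joined; wider peaks hold more replicate peaks by construction. The Spearman correlation of score and width was -0.17 above 2000 bp and -0.02 to 0.03 in the replicate lists. X minus autosomes was negative in all settings run (-12.4 to -0.61 points), and -2.35 to -0.61 in the replicate lists. Centre minus arms became -0.49 with covered bases and -4.10 in the top 10%, and was -0.54 to 0.49 in the replicate lists. The neighbour difference was -0.74 in the top 10%, 1.89 and 2.05 (p = 0.0312, exact permutation) with 1000 bp and with combined peaks joined, and 2.22 to 5.79 in the replicate lists. The cause was not tested. The top 10%, the joining of combined peaks and the omission of the 4 domains on I were added after the data were seen. No paired analysis was possible because only ChIP lists were analysed here, and they are 1 group. Without reads, a gap within a domain may be bases below a threshold.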
